A study of Mus musculus with 9 samples.

Results

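Monocyte-attracting and inflammatory CC chemokines were followed in macrophages sorted from tumours. The 8 genes Ccl2, Ccl3, Ccl4, Ccl6, Ccl7, Ccl8, Ccl9 and Ccl12 were taken from the deposited expression table by gene symbol. All 8 were found among its 18042 genes, and all 8 were among the 13090 genes with enough counts to be tested. None of them had a fractional count in any library, and whether reads were shared between similar sequences was not tested.

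CC chemokines are small secreted proteins that guide leukocytes along a gradient by binding seven-pass receptors on the cell surface. Ccl2, Ccl7, Ccl8 and Ccl12 are the monocyte chemoattractant proteins. Ccl2, Ccl7 and Ccl12 act on Ccr2, the receptor by which inflammatory monocytes leave the bone marrow and enter tumours, where many become macrophages, and mouse Ccl8 is a ligand of Ccr8. Ccl3 and Ccl4 are the macrophage inflammatory proteins, which macrophages, neutrophils and activated lymphocytes make. Ccl3 acts on Ccr1, among other receptors. Ccl6 and Ccl9 are abundant products of mouse myeloid cells that act on Ccr1.

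The 3 groups were wild-type female C57BL/6 mice of 6 to 8 weeks, the age at injection of 1000000 MC38 cells, a mouse colon carcinoma line, under the skin. From day 9 the tumours were injected with IN@OMVs, with OMVs or, in Control, with solvent. Both vesicle groups received 12.5 µg of vesicle protein per mouse (625 µg per kg). OMVs is the usual abbreviation of bacterial outer membrane vesicles, and the sources used here do not say what IN stands for. Each group held 3 libraries of CD11b+ F4/80+ cells, labelled as biological replicates. Nor do they say whether a replicate was 1 mouse or a pool, or how long after injection tumours were taken.

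The libraries held 16813230 to 17288322 expected counts each. The transcripts of the 2 sort markers were present throughout, at 384 to 617 CPM for Adgre1 (F4/80) and 1079.7 to 1896 CPM for Itgam (CD11b), where CPM are counts per 1000000 counts of a library, after TMM scaling. Itgam was not even across groups. It had 1079.7 to 1479.5 CPM in IN@OMVs, 1501 to 1896 CPM in OMVs and 1726 to 1798 CPM in Control. IN@OMVs library 1 stood apart, with a mean log2(CPM + 0.5) of 4.86 over 10 fibroblast markers, against 6.25 to 6.88 in the other 8 libraries. In library 1 of each group 12 T cell markers averaged 4.05 to 4.20 on that scale, against 1.91 to 2.98 in the other 6 libraries. In bulk RNA fewer cells of a type and less RNA per cell cannot be told apart.

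All 8 genes lie on mouse chromosome 11, where RefSeq (GRCm38.p6) orders them in 2 runs separated by 25 other protein-coding genes. The first run is Ccl2, Ccl7, Ccl11, Ccl12, Ccl8 and Ccl1, and the second is Ccl5, Ccl9, Ccl6, Ccl3 and Ccl4. The RefSeq promoter windows, 250 bases before and 50 after the start site, were matched for 5 of the 8 genes. Those of Ccl12 and Ccl8, the genes with the largest increases, and of Ccl3, the gene that fell in IN@OMVs against OMVs, are shown 5′ to 3′ on the gene's strand, at chr11:82101595-82101894 on the plus strand for Ccl12, chr11:82114935-82115234 on the plus strand for Ccl8 and chr11:83649329-83649628 on the minus strand for Ccl3. Capitals mark matches, on either strand, to TATAAA (the TATA box) or GAGGAA (a core bound by the myeloid factor PU.1).
Ccl12: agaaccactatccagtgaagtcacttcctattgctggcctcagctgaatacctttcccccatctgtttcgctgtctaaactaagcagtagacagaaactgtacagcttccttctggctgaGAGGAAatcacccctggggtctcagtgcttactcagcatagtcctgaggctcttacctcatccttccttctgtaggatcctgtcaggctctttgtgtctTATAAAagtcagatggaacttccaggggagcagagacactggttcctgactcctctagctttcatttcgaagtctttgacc
Ccl8: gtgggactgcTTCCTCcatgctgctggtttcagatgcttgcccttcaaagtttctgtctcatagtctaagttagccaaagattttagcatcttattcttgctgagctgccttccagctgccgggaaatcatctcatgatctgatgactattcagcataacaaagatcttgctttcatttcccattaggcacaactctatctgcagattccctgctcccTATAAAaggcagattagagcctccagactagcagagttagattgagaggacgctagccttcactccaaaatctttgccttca
Ccl3: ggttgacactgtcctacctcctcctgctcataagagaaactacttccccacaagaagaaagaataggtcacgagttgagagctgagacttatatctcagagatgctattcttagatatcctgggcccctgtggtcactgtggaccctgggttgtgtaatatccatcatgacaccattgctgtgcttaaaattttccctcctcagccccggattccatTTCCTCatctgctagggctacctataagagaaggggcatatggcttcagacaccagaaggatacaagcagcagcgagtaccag

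The windows of Ccl12 and Ccl8 each held TATAAA at -31 and -32 from the start site, a match that 13.6% of all 32851 RefSeq windows of this length contained. GAGGAA was in the windows of Ccl12, Ccl8 and Ccl3 and in 28.3% of all windows. No match to the interferon-stimulated response element (ISRE), TGANTCA (AP-1), TTGCNNAA (C/EBP) or the NF-kB consensus was found in these 3 windows. These letters occurred in 3.44%, 7.81%, 10.8% and 8.46% of all windows in that order. The Ccl9 window held matches to NF-kB and AP-1, and the Ccl6 window held none of these motifs.

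The genes differed widely in level. Per kilobase of the longest GENCODE vM21 transcript, Ccl6 stood highest in Control at 318 ± 13.9 CPM per kb (mean ± SD, n = 3 here and throughout), followed by Ccl2 at 287 ± 9.38, Ccl9 at 271.5 ± 17.4, Ccl8 at 199 ± 33.9, Ccl7 at 184 ± 18.5, Ccl12 at 96.0 ± 10.2, Ccl3 at 74.5 ± 14.6 and Ccl4 at 40.9 ± 8.59. The ranges of Ccl2 and Ccl9, of Ccl8 and Ccl7 and of Ccl12 and Ccl3 overlapped in Control. Within each of the 3 libraries Ccl2 stood above Ccl9 and Ccl8 above Ccl7, while Ccl12 stood above Ccl3 in 2 of 3. Ccl9 has a transcript of 3006 bases in GENCODE, the longest of the 8, so a shorter transcript in these cells would raise its value per kb. In IN@OMVs the order was Ccl6 at 410 ± 3.23 CPM per kb, Ccl2 at 390 ± 40.7, Ccl8 at 376 ± 27.5, Ccl7 at 290 ± 45.6, Ccl12 at 235 ± 59.9, Ccl9 at 209 ± 26.0, Ccl3 at 48.9 ± 10.96 and Ccl4 at 28.8 ± 9.22. There Ccl9 ranked below all 4 monocyte chemoattractant proteins, although its range overlapped that of Ccl12. The ranges of Ccl6 and Ccl2, of Ccl2 and Ccl8 and of Ccl7 and Ccl12 overlapped too. Within IN@OMVs libraries Ccl6 stood above Ccl2 in 2 of 3, while Ccl2 stood above Ccl8 and Ccl7 above Ccl12 in all 3. In OMVs Ccl2 led at 398 ± 58.8 CPM per kb and Ccl9 followed Ccl6 and Ccl8 at 263.5 ± 43.0, with ranges that overlapped between all neighbours from Ccl2 to Ccl7.

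IN@OMVs and Control differ in both vesicles and IN. Among IN@OMVs libraries the monocyte chemoattractant proteins stood higher. Ccl12 rose 2.45-fold, Ccl8 1.89-fold and Ccl7 1.57-fold, and Ccl2 stood 1.36-fold higher without passing. Ccl3, Ccl4 and Ccl9 had lower means and Ccl6 a higher one, none past the threshold of an adjusted p of 0.05 (edgeR's quasi-likelihood test, Benjamini-Hochberg over the 13090 genes). Thus 3 of 8 members were called, all higher, where 3.32% of all genes tested were called higher, 3.24% lower and 6.55% in either direction. An unadjusted p under 0.05 was reached by 7 of 8 members and by 19.8% of all genes tested. The median log2 change of the 8 was 0.41, against 0.00 over all genes tested.

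**Figure D1:**
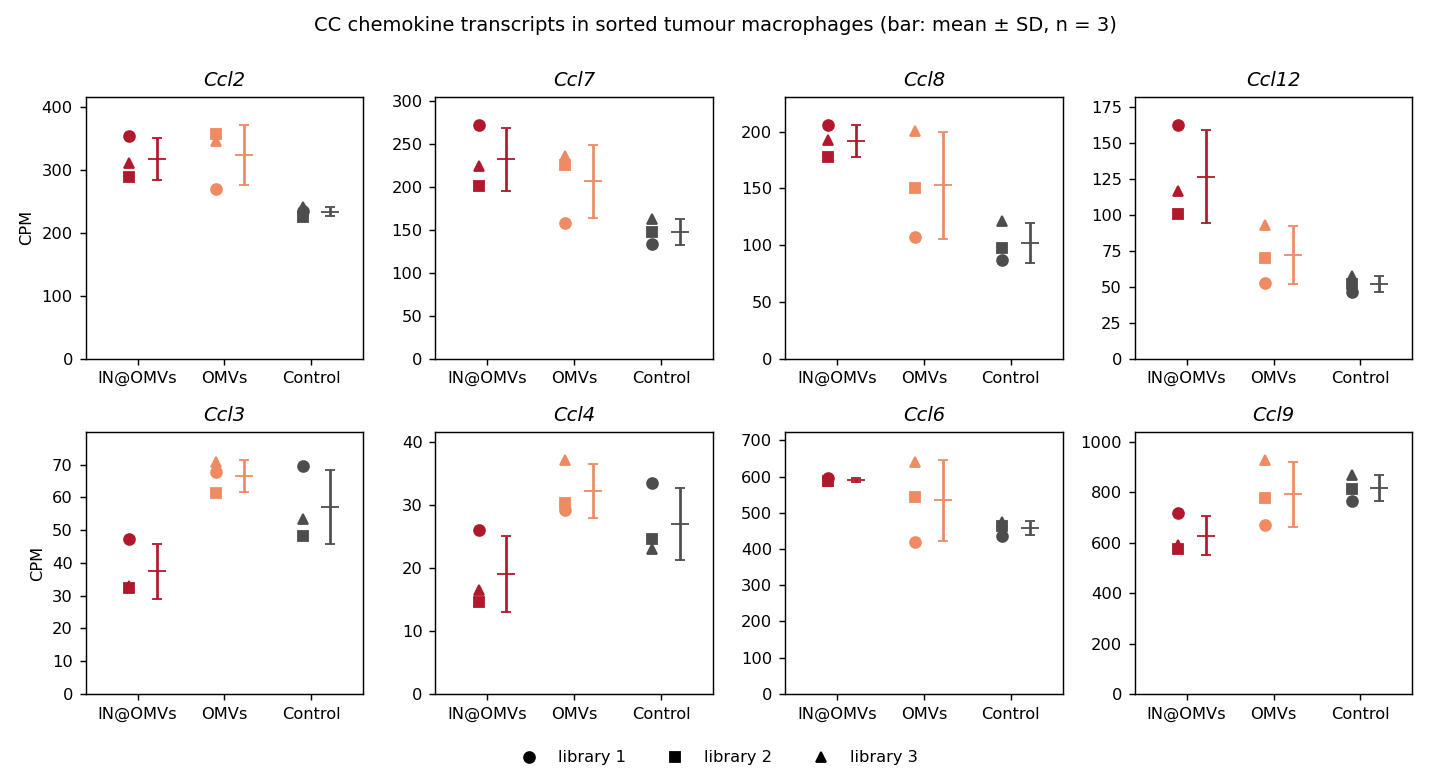
CPM of each gene (vertical axes, each from 0) in IN@OMVs, OMVs and Control, with 1 point per library shaped by its replicate number and bars for mean ± SD (n = 3). The 3 IN@OMVs libraries lie above the 3 Control libraries for Ccl2, Ccl6, Ccl7, Ccl8 and Ccl12 and below them for Ccl3 and Ccl9.

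Ccl12 had 162, 101 and 116 CPM in IN@OMVs libraries 1, 2 and 3, against 46.1, 51.6 and 57.0 CPM in the Control libraries. Every IN@OMVs library exceeded every Control library, and library 1 was the highest. The log2 fold change was 1.29 ± 0.22 (SE) with an edgeR adjusted p = 0.0103, larger than in 99.6% of the genes tested.

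Ccl8 had 206, 178 and 192 CPM in IN@OMVs, against 87.1, 97.5 and 121 CPM in Control. The groups did not overlap, and the lowest IN@OMVs library lay well above the highest Control library. The log2 fold change was 0.92 ± 0.21 (edgeR adjusted p = 0.0323).

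Ccl7 had 272, 201 and 223 CPM in IN@OMVs, against 133, 147 and 162 CPM in Control. The groups did not overlap here either. The log2 fold change of 0.65 ± 0.16 lay just past the threshold (edgeR adjusted p = 0.0490).

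Ccl2 had 353, 288 and 310 CPM in IN@OMVs, against 234, 225 and 241 CPM in Control. The Control libraries lay close together and below all IN@OMVs libraries. The log2 fold change of 0.44 ± 0.11 fell just short of the threshold (edgeR adjusted p = 0.0528, 95% interval 0.19 to 0.70).

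Ccl3 had 47.2, 32.4 and 32.8 CPM in IN@OMVs, against 69.7, 48.2 and 53.3 CPM in Control, a log2 fold change of -0.61 ± 0.17 (edgeR adjusted p = 0.0769). Library 1 was the highest of its group in both, and the groups lay close, with 47.2 CPM in the highest IN@OMVs library and 48.2 CPM in the lowest Control library. Ccl4 had 26.0, 14.7 and 16.5 CPM in IN@OMVs, against 33.5, 24.6 and 23.0 CPM in Control (-0.51 ± 0.23, edgeR adjusted p = 0.255), with IN@OMVs library 1 inside the Control range.

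Ccl6 and Ccl9, the most abundant of the 8 by CPM, had means on opposite sides of Control. Ccl6 had 596, 588 and 589 CPM in IN@OMVs, against 436, 464 and 474 CPM in Control (0.37 ± 0.13, edgeR adjusted p = 0.148). Ccl9 had 718, 576 and 591 CPM in IN@OMVs, against 765, 814 and 869 CPM in Control (-0.38 ± 0.13, edgeR adjusted p = 0.133). The libraries of the groups did not overlap for either gene. In this comparison 5 of the 8 members lay wholly higher and 2 wholly lower, where 13.3% of all genes tested lay wholly higher, 12.5% wholly lower and 25.9% either way.

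The calls moved with single libraries while every direction held. Ccl12 missed the threshold without Control 1 (adjusted p = 0.0506) or Control 2 (0.0523) and lay between 8.57e-07 and 0.0523 over all 18 alternatives. Ccl8 missed it without IN@OMVs 2 (0.0596), IN@OMVs 3 (0.0915), OMVs 2 (0.0605), Control 1 (0.122), Control 2 (0.131) or Control 3 (0.0579), and Ccl7 without any 1 library other than IN@OMVs 1 and OMVs 1 (0.0518 to 0.167). Without IN@OMVs 1, the library low in fibroblast markers, 6 members were called: Ccl12, Ccl8 and Ccl7 higher and Ccl3 (-0.81), Ccl4 (-0.80) and Ccl9 (-0.49) lower. Without library 1 of every group all 8 were called, 5 higher and 3 lower. The share of all genes called in these fits is not reported here, so the counts cannot be set against it. With the replicate number as a block, which treats same-numbered libraries as if paired, Ccl3 was called (-0.61, adjusted p = 0.0260) and Ccl7 was not (0.66, adjusted p = 0.0825).

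OMVs and Control differ in the vesicles alone. Means of 7 of the 8 genes were higher in OMVs, but edgeR called 0 members, where it called 0.42% of all genes tested, 0.298% higher and 0.122% lower. An unadjusted p under 0.05 was reached by 3 members (Ccl2, Ccl7 and Ccl8) and by 8.44% of all genes tested. With the replicate number as a block, 20 genes were called in all, against 55 without it, and 0 members. DESeq2 called 1, Ccl2 (adjusted p = 0.0105), and limma-voom 0. The median log2 change was 0.36, against 0.00 over all genes tested.

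Ccl2 had 269, 357 and 345 CPM in OMVs libraries 1, 2 and 3, against 234, 225 and 241 CPM in Control. It was the only member whose OMVs and Control libraries did not overlap, as was so for 19.8% of all genes tested, 9.89% in each direction. Its log2 fold change was 0.47 ± 0.11 (edgeR adjusted p = 0.182). Its adjusted p lay between 0.00119 and 0.655 over the 18 alternatives, and it passed in edgeR without IN@OMVs 1 (0.0385).

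Ccl8 had 107, 151 and 200.5 CPM in OMVs (0.58 ± 0.21, edgeR adjusted p = 0.427), a spread that reached from the Control range to the IN@OMVs range. Ccl7 had 158, 225 and 235 CPM in OMVs (0.48 ± 0.16, edgeR adjusted p = 0.385), with library 1 inside the Control range. Ccl12 had 52.7, 69.9 and 92.7 CPM in OMVs (0.48 ± 0.22, edgeR adjusted p = 0.639), again with library 1 inside the Control range. Ccl6 had 418, 545 and 639.9 CPM in OMVs (0.22 ± 0.13, edgeR adjusted p = 0.749), a range that enclosed the Control libraries.

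Ccl3 had 67.6, 61.3 and 70.8 CPM in OMVs (0.22 ± 0.17, edgeR adjusted p = 0.848) and Ccl4 had 29.2, 30.4 and 37.2 CPM (0.26 ± 0.22, edgeR adjusted p = 0.885). Control 1 lay among the OMVs libraries for both. Ccl9 had 671, 776 and 928 CPM in OMVs (-0.04 ± 0.13, 95% interval -0.33 to 0.24), with lower and higher libraries on each side of Control. OMVs library 1 was the lowest of its group for 7 of the 8 genes, and without library 1 of every group 6 members were called, all higher (Ccl2, Ccl3, Ccl4, Ccl7, Ccl8 and Ccl12). The share of all genes called in that fit is not reported here.

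IN@OMVs and OMVs were given at an equal dose of vesicle protein and differ in IN. Ccl3 fell to 37.5 ± 8.39 CPM in IN@OMVs, against 66.6 ± 4.81 CPM in OMVs, a log2 fold change of -0.83 ± 0.17 (edgeR adjusted p = 0.0379) and 0.56 of the OMVs level. It was the 1 member called, where 2.85% of all genes tested were called, 1.1% higher and 1.75% lower. An unadjusted p under 0.05 was reached by 4 members and by 14.4% of all genes tested. The median log2 change of the 8 was 0.06, against 0.00 over all genes tested. The highest IN@OMVs library had 47.2 CPM of Ccl3 and the lowest OMVs library 61.3 CPM.

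Ccl4 stood at 19.0 ± 6.09 CPM in IN@OMVs and 32.2 ± 4.30 CPM in OMVs (-0.76 ± 0.22, edgeR adjusted p = 0.143). The groups did not overlap, by 26.0 CPM in the highest IN@OMVs library and 29.2 CPM in the lowest OMVs library. Ccl12 stood at 126 ± 32.1 CPM in IN@OMVs and 71.7 ± 20.1 CPM in OMVs (0.82 ± 0.22, edgeR adjusted p = 0.107), also without overlap, with 101 CPM in the lowest IN@OMVs library and 92.7 CPM in the highest OMVs library. Together with Ccl3 these were 3 of 8 members without overlap, 1 higher and 2 lower, where 17.6% of all genes tested had none, 8.86% higher and 8.72% lower.

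Ccl2 averaged 317 ± 33.1 CPM in IN@OMVs and 324 ± 47.8 CPM in OMVs (-0.03 ± 0.11, edgeR adjusted p = 0.950), and the 95% interval of the log2 difference was -0.28 to 0.23. Ccl7 (0.17, 95% interval -0.20 to 0.54), Ccl8 (0.33, -0.13 to 0.80) and Ccl6 (0.15, -0.15 to 0.44) also had intervals that included 0. Ccl9 averaged 628 ± 78.1 CPM in IN@OMVs and 792 ± 129 CPM in OMVs (-0.33 ± 0.13, edgeR adjusted p = 0.269), with overlapping libraries.

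The Ccl3 call held without IN@OMVs 1 or Control 1 and ended without any other single library (adjusted p = 0.107 without IN@OMVs 2, 0.141 without IN@OMVs 3, 0.128 without OMVs 1, 0.0938 without OMVs 2, 0.135 without OMVs 3, 0.0506 without Control 2 and 0.0812 without Control 3). Over the 18 alternatives its log2 change lay between -1.03 and -0.74 and its adjusted p between 4.99e-05 and 0.141. Without IN@OMVs 1 Ccl4 was called as well (-1.05, adjusted p = 0.00523), and without library 1 of every group Ccl3, Ccl4 and Ccl9 were called lower. For these 2 fits too the share of all genes called is not reported here.

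**Figure D2:**
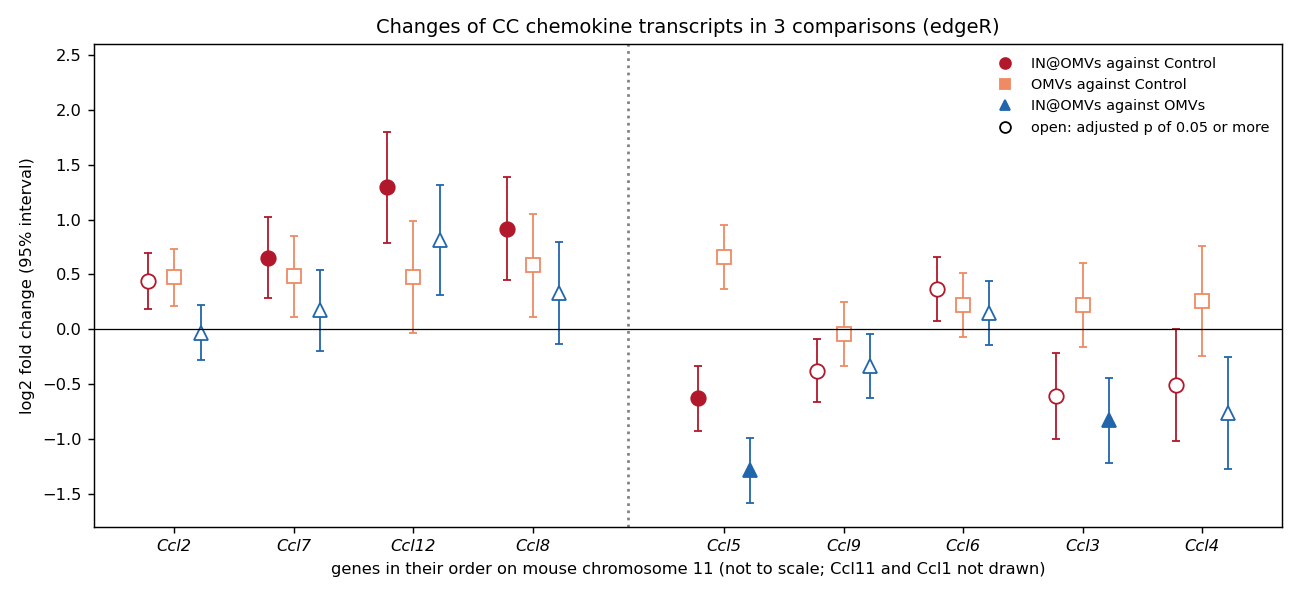
Log2 fold change (vertical axis, with its 95% interval) of each member and of the neighbour Ccl5 in the 3 comparisons, with genes in chromosomal order and the 2 runs split by a dotted line. Filled symbols passed an adjusted p of 0.05: Ccl7, Ccl12, Ccl8 and Ccl5 in IN@OMVs against Control, and Ccl5 and Ccl3 in IN@OMVs against OMVs.

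In the first run Ccl2, Ccl7, Ccl12 and Ccl8 had, against the same Control libraries, log2 changes of 0.44, 0.65, 1.29 and 0.92 with IN@OMVs, beside 0.47, 0.48, 0.48 and 0.58 with OMVs. Ccl11, an eosinophil attractant in the same run, averaged 3.34 ± 2.29, 1.90 ± 0.804 and 2.70 ± 1.92 CPM in IN@OMVs, OMVs and Control, and Ccl1 averaged 0.978, 1.33 and 0.887 CPM. Neither passed in any comparison. In the second run Ccl6 had a positive mean change in IN@OMVs while its neighbours Ccl9, Ccl3 and Ccl4 had negative ones. Summed over the 4 monocyte chemoattractant proteins the level was 868 ± 115 CPM in IN@OMVs, 754 ± 150 CPM in OMVs and 534 ± 42.1 CPM in Control. For Ccl3 and Ccl4 together it was 56.5 ± 14.5, 98.8 ± 8.31 and 84.1 ± 16.6 CPM in the same order of groups.

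Ratios between 2 members within a library do not depend on library scaling, and a difference in ratio does not depend on gene length. The log2 ratio of Ccl12 to Ccl2 was -1.12, -1.51 and -1.41 in the IN@OMVs libraries. It was -2.34, -2.34 and -1.89 in the OMVs libraries and -2.33, -2.12 and -2.07 in the Control libraries. Ccl12 was thus a larger fraction of Ccl2 in all IN@OMVs libraries than in the other 6, while OMVs and Control overlapped. The exact permutation test of 3 against 3 libraries (2-sided) cannot go below p = 0.1, and it gave p = 0.1 for IN@OMVs against Control and against OMVs. Over the 28 pairs in 3 comparisons the smallest adjusted p was 0.153, so no pair passed.

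The log2 ratio of Ccl9 to Ccl6 was 0.27, -0.03 and 0.01 in the IN@OMVs libraries, 0.68, 0.51 and 0.54 in the OMVs libraries and 0.81, 0.81 and 0.87 in the Control libraries. No 2 of the 3 groups overlapped for this pair (exact permutation p = 0.1 each). The same held for Ccl9 paired with Ccl2, Ccl7, Ccl8 or Ccl12. Of the 28 pairs, 23 did not overlap in IN@OMVs against Control, 9 in OMVs against Control and 23 in IN@OMVs against OMVs. Pairs of other genes were not tested. The ratio of Ccl3 to Ccl4 averaged 0.98 ± 0.14 over IN@OMVs libraries, 1.04 ± 0.14 over OMVs libraries and 1.07 ± 0.12 over Control libraries, with overlapping libraries throughout. The ratio of Ccl7 to Ccl2 averaged -0.46 ± 0.07 over IN@OMVs libraries, -0.66 ± 0.11 over OMVs libraries and -0.66 ± 0.13 over Control libraries, and the IN@OMVs libraries lay above the other 6.

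**Figure D3:**
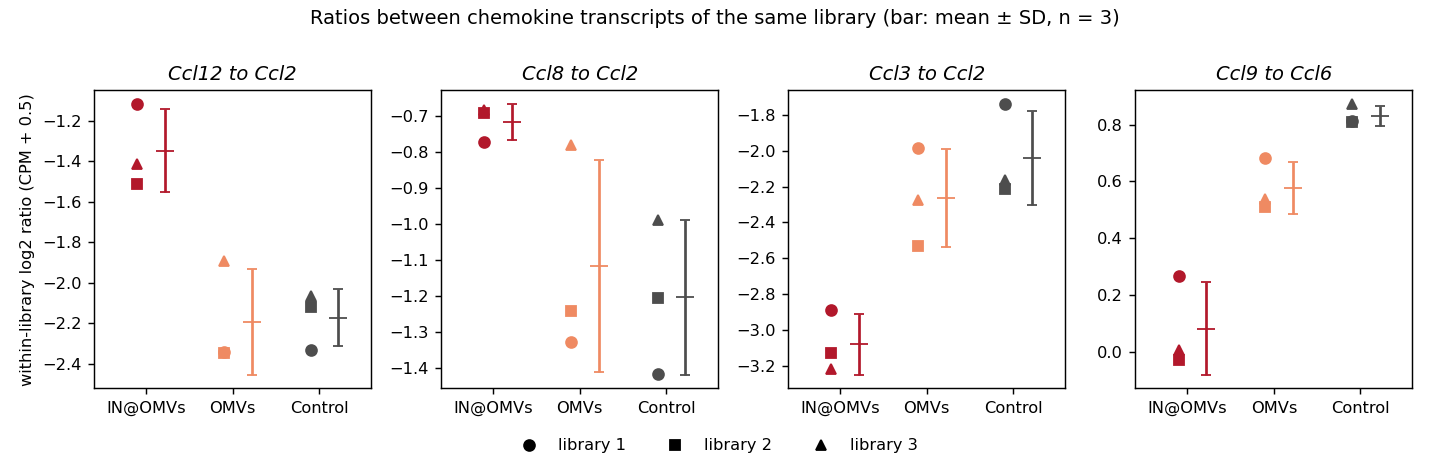
Within-library log2 ratio, log2(CPM + 0.5) of the first gene minus that of the second (vertical axes, not from 0), for Ccl12, Ccl8 and Ccl3 to Ccl2 and for Ccl9 to Ccl6, with 1 point per library and bars for mean ± SD (n = 3). For Ccl9 to Ccl6 the IN@OMVs libraries lie at -0.03 to 0.27, the OMVs libraries at 0.51 to 0.68 and the Control libraries at 0.81 to 0.87.

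Within a group most members were high or low in the same libraries. IN@OMVs library 1 was the highest of its group for all 8 genes and library 2 the lowest for all 8, OMVs library 3 was the highest for 7, and Control library 3 the highest for 6, the exceptions in Control being Ccl3 and Ccl4, highest in library 1. After the group means were removed, the 9 libraries gave a correlation of 0.99 between Ccl9 and Ccl12, of 0.93 between Ccl2 and Ccl7 and of 0.92 between Ccl3 and Ccl4. The pairs among Ccl2, Ccl6, Ccl7, Ccl8, Ccl9 and Ccl12 had 0.73 to 0.99. Ccl3 had -0.04 with Ccl6, 0.01 with Ccl8, 0.19 with Ccl7 and 0.34 to 0.37 with Ccl2, Ccl9 and Ccl12. Ccl4 had 0.21 with Ccl6 and with Ccl8, 0.43 with Ccl7 and 0.54 to 0.58 with Ccl2, Ccl9 and Ccl12. Without removing the group means, Ccl9 and Ccl12 had -0.37. These values describe libraries that share their cell mixture and scaling, and carry no test. The 8 members together held 2381, 1978 and 2071 CPM in IN@OMVs, 1773, 2216 and 2549 CPM in OMVs and 1803, 1873 and 2001 CPM in Control.

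Over the 9 libraries the genes whose log2 CPM followed each member most closely, among 10512 candidates, were Ifit2, Il18bp and Sdc3 for Ccl12 (Pearson r of 0.98 for each). Ifit2 is an interferon-induced antiviral gene and Il18bp encodes a soluble antagonist of IL-18. For Ccl3 they were Trib1 (0.99), Tnfaip3 (0.98) and Cct2 (0.97), of which Tnfaip3 encodes the NF-kB inhibitor A20, and for Ccl4 Jaml (0.98), Reep3 (0.97) and Sh2b2 (0.97). Osbp, an oxysterol-binding protein gene, was among the closest for Ccl7 (0.98, with Etv5 and Itsn1), Ccl8 (0.98, with Atg16l1 and Mis12) and Ccl6 (0.95, with Bnip3 and Mr1). For Ccl2 they were Arid5b, Rgs11 and Hsd3b7 (0.96 each), and for Ccl9 Rab11fip5, Zeb2 and Glrx (0.97 each). These were picked as the highest of 10512 values per member over 9 libraries, with group means not removed. Whether they share regulation with the members was not tested.

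Receptors of these chemokines included the abundant Ccr1 and Ccr2, and 0 of 5 receptor genes passed in any comparison in edgeR (2, 1 and 1 had an unadjusted p under 0.05 in IN@OMVs against Control, OMVs against Control and IN@OMVs against OMVs). Ccr2, the receptor of Ccl2, Ccl7 and Ccl12, averaged 517 ± 105 CPM in IN@OMVs, 520 ± 51.5 CPM in OMVs and 655 ± 34.7 CPM in Control (-0.34 ± 0.13 in IN@OMVs against Control, edgeR adjusted p = 0.193). Ccr1 averaged 398 ± 60.4, 419 ± 59.8 and 420 ± 10.8 CPM in IN@OMVs, OMVs and Control. Ccr3 and Ccr8 did not exceed 2.1 CPM in any library. Ccrl2, an atypical receptor that binds chemerin and presents it without signalling, fell to 52.5 ± 9.92 CPM in IN@OMVs, against 83.1 ± 12.2 CPM in Control (-0.66 ± 0.15, edgeR adjusted p = 0.0372). The scavenging receptors Ackr1, Ackr2 and Ackr4 had too few counts to be tested.

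Of 13 other CC chemokines listed, 8 could be tested. In IN@OMVs against Control 0 rose and 1 fell, and in IN@OMVs against OMVs 3 rose and 1 fell. EdgeR called 0 of them in OMVs against Control, where 4 had an unadjusted p under 0.05. Ccl5, a T cell and monocyte attractant next to Ccl9 on the chromosome, had 103, 76.4 and 77.8 CPM in IN@OMVs, 184, 200.1 and 243 CPM in OMVs, and 132, 132 and 133 CPM in Control. Its 3 groups did not overlap, and it fell in IN@OMVs against Control (-0.63 ± 0.13, edgeR adjusted p = 0.0232) and against OMVs (-1.29 ± 0.13, edgeR adjusted p = 0.00152). The attractants of type 2 responses Ccl17 (0.93 ± 0.18), Ccl22 (0.79 ± 0.14) and Ccl24 (1.42 ± 0.22) rose in IN@OMVs against OMVs. All 3 had lower means in OMVs than in Control (-0.61, -0.57 and -0.79 in that order). Against Control their changes in IN@OMVs were 0.32, 0.23 and 0.63, and neither set of changes passed the threshold. Ccl24 was scarce, at a mean of 4.71 CPM in IN@OMVs, against 1.76 CPM in OMVs.

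Among cytokines that induce CC chemokines, 8 of 12 could be tested, and Il1b, Il1a and Il6 fell in IN@OMVs against Control (-1.86, -1.46 and -3.53) and against OMVs (-1.91, -1.45 and -3.35). Il6 was scarce, at means of 0.456 CPM in IN@OMVs, 4.69 CPM in OMVs and 5.33 CPM in Control. Tnf averaged 34.4 ± 8.45, 30.4 ± 3.45 and 26.8 ± 2.58 CPM in IN@OMVs, OMVs and Control and passed in no comparison. Of 11 NF-kB subunits and feedback targets, 3 fell in IN@OMVs against Control: Nfkbia (-0.41 ± 0.08), Tnfaip3 (-0.73 ± 0.15) and Nfkbiz (-0.57 ± 0.12). In IN@OMVs against OMVs 4 fell: Nfkbia (-0.64), Tnfaip3 (-0.88), Nfkb2 (-0.36) and Bcl3 (-0.60). Of 7 factors that control mRNA decay or stability, Zfp36, which destabilises cytokine mRNAs, fell to 551 ± 133 CPM in IN@OMVs, against 903 ± 54.4 CPM in Control (-0.71 ± 0.15, edgeR adjusted p = 0.0257). The RNase gene Zc3h12a fell to 38.4 ± 5.21 CPM in IN@OMVs, against 60.7 ± 5.40 CPM in OMVs (-0.66 ± 0.10, edgeR adjusted p = 0.00976). In OMVs against Control 0 members of these 3 lists passed in edgeR, and 1, 4 and 2 of them had an unadjusted p under 0.05.

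Markers of several cell types were followed in the same libraries, and which cells their transcripts came from was not tested. Of 8 monocyte markers 6 fell in IN@OMVs against Control (among them Plac8, Hp, F13a1, Chil3 and Vcan), and 3 fell in IN@OMVs against OMVs, with a summed level of 1264 to 1487 CPM in IN@OMVs, 1896 to 2239.6 CPM in OMVs and 2636 to 2907 CPM in Control. Ly6c2, a marker of inflammatory monocytes in the same list, averaged 108 ± 34.0 CPM in IN@OMVs, 84.7 ± 8.93 CPM in OMVs and 82.1 ± 18.7 CPM in Control (0.39 ± 0.23 in IN@OMVs against Control, edgeR adjusted p = 0.394). Of 11 neutrophil markers 10 fell in IN@OMVs against Control and 10 against OMVs, with a summed level of 136 to 206 CPM in IN@OMVs, 639 to 852 CPM in OMVs and 902 to 1295 CPM in Control. In OMVs against Control 2 monocyte markers fell and 0 neutrophil markers passed in edgeR (6 at an unadjusted p under 0.05). Monocytes and neutrophils also transcribe CC chemokines, Ccl3 and Ccl4 among them, and the part of these cells in the values of the 8 members was not tested. T cell markers summed to 50.4 to 248 CPM in IN@OMVs, 45.5 to 220.2 CPM in OMVs and 48.6 to 254 CPM in Control, and NK cell markers to 6.90 to 21.1, 5.85 to 31.5 and 5.96 to 39.6 CPM. The highest value was in library 1 of each group. In edgeR 0 of the 12 T cell and 6 NK cell markers passed in any comparison, and none had an unadjusted p under 0.05. Ccl3 and Ccl4 were highest in Control 1 and, like all 8 members, in IN@OMVs 1, but not in OMVs 1. The part of T and NK cells in these values was not tested. Fibroblast markers, from cells that make Ccl2 and Ccl7, summed to 1503 to 4691 CPM in IN@OMVs, 3454 to 4519.8 CPM in OMVs and 4242 to 5861 CPM in Control. Their part in the members' values was not tested. Of 8 dendritic cell markers Batf3 (1.33 ± 0.26) and Clec9a (1.31 ± 0.22) rose in IN@OMVs against Control, at means of 4.58 and 3.74 CPM in IN@OMVs, against 1.81 and 1.504 CPM in Control, and Batf3 rose against OMVs (1.17 ± 0.25). Against Control Flt3 (-0.79 ± 0.32, edgeR adjusted p = 0.218), Itgae (-0.43), Ccr7 (-0.08) and Zbtb46 (-0.05) had lower means in IN@OMVs. Xcr1 (0.99) and Cd209a (0.31) had higher ones, and none of these passed. The median log2 change of the 8 was 0.13. Of 7 resident-like macrophage markers tested, Lyve1 and Cd163 fell in IN@OMVs against Control (-2.17 and -2.46) and in OMVs against Control (-2.12 and -2.18). In IN@OMVs against Control Timd4 (0.34), Gas6 (0.32) and Selenop (0.02) had higher means and Fcna (-0.27) and Folr2 (-0.19) lower ones, none past the threshold. The 8 listed markers summed to 615 to 904 CPM in IN@OMVs, 580 to 833 CPM in OMVs and 661 to 809 CPM in Control, with overlap. The 11 macrophage markers summed to 12746 to 18458 CPM in IN@OMVs, 12211 to 16329 CPM in OMVs and 12889 to 15014 CPM in Control, with the highest value of each group in IN@OMVs 1, OMVs 3 and Control 3, the libraries in which most members were highest. The part of macrophage RNA content in the spread within groups was not tested. Of the macrophage markers 0 passed in edgeR (4, 0 and 2 at an unadjusted p under 0.05 in IN@OMVs against Control, OMVs against Control and IN@OMVs against OMVs). The sort marker Itgam fell just short in IN@OMVs against Control (-0.50 ± 0.13, edgeR adjusted p = 0.0512), and had -0.42 ± 0.13 against OMVs (edgeR adjusted p = 0.147). Against Control C1qc (0.49), C1qb (0.42) and Fcgr1 (0.36) had higher means in IN@OMVs.

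**Figure D4:**
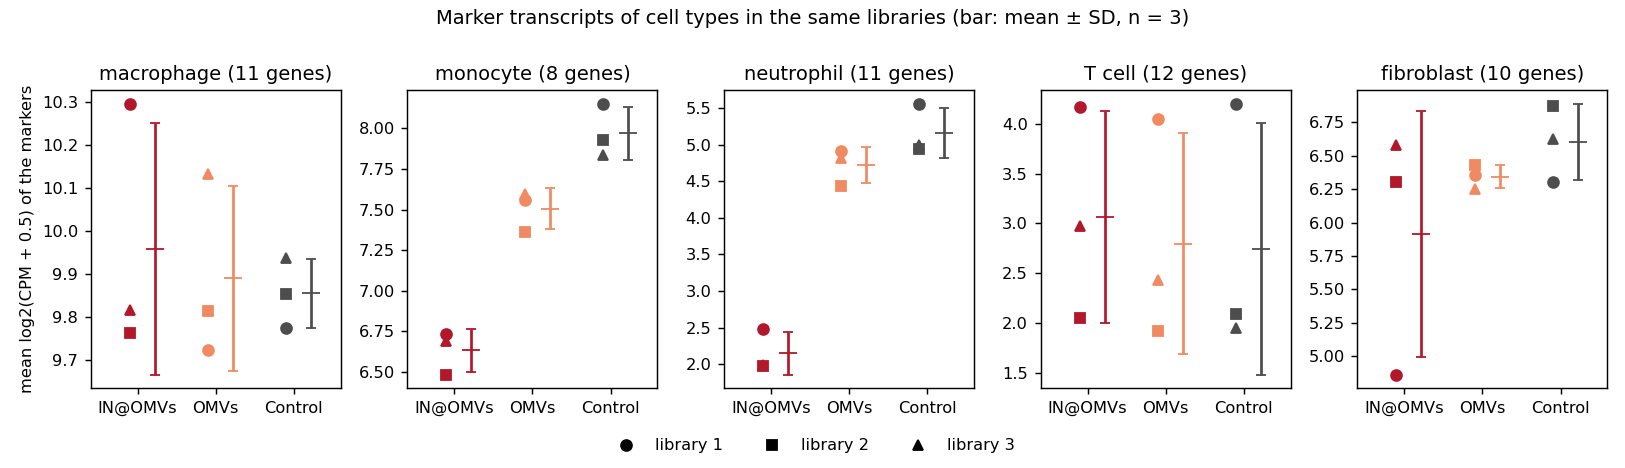
Mean log2(CPM + 0.5) of marker genes of 5 cell types (vertical axes, not from 0) in IN@OMVs, OMVs and Control, with 1 point per library and bars for mean ± SD (n = 3). Neutrophil markers average 1.98 to 2.49 in IN@OMVs, 4.44 to 4.91 in OMVs and 4.94 to 5.56 in Control, and T cell markers are highest in library 1 of each group.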

How the data were processed

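RNA of sorted tumour macrophages was measured in 9 libraries, 3 per group. The authors deposited 1 table of expected counts per gene symbol and library, not normalised. That unit rests on the values, since 88.8% to 89.6% of them were whole numbers, within 1e-09, in a library. BWA, Bowtie2 and RSEM, and without roles the builds mm9 and hg19, are listed in the submitters' processing notes. Libraries were prepared with oligo-dT beads, per the labels' protocols. The sources used here do not state strand use in counting.

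Expected counts were rounded and tested with edgeR 4.0.16 (R 4.3.3): TMM factors, filterByExpr, 1 mean per group over all 9 libraries, a quasi-likelihood test of each contrast and Benjamini-Hochberg adjustment over 13090 genes, with a threshold of 0.05. Log2 fold changes are given with an SE taken from the F statistic and, for some, a 95% interval. CPM use TMM-scaled library sizes. Alternatives used DESeq2 1.42.0, limma-voom (limma 3.58.1), other scaling, other filters, a replicate block, fits of 2 groups and omitted libraries. Promoter windows came from RefSeq (GRCm38.p6), transcript lengths from GENCODE vM21, and figures were drawn with matplotlib 3.10.9. The steps were tested on simulated counts with known changes.

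The members and lists were chosen with earlier results of these data known. Named were all 8 members, members of pathway lists past the threshold (up to 4 by smallest p per list and comparison), and for each member the 3 genes of highest Pearson correlation among genes averaging 5 CPM or more, predicted models omitted. Nothing says that replicates came from separate mice, so p-values measure the spread between these libraries.

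Deviations of same-numbered libraries from their group means correlated at 0.45, 0.31 and 0.15 for IN@OMVs and Control. For OMVs and Control they correlated at 0.53, 0.37 and 0.12. Libraries 2 and 3 also correlated across groups, at 0.36 for IN@OMVs 2 and Control 3, 0.29 for IN@OMVs 3 and Control 2 and 0.35 for OMVs 2 and Control 3. Library 1 of a group and library 2 or 3 of another had -0.45 to -0.30 for IN@OMVs and Control. For OMVs and Control they had -0.49 to -0.13. Deviations within a group cancel out, so a likeness of the libraries numbered 1 alone would make libraries 2 and 3 correlate across groups. The data alone therefore cannot tell whether the numbers mark pairs, and the replicate block is only an alternative. For IN@OMVs and OMVs same-numbered libraries correlated at 0.07, 0.51 and -0.37, and the numbers were not taken as pairs there either.

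Some genes and a motif of the lists are not reported here by name.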

Additional observations from a re-analysis of the deposited data

How the results depend on the processing

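The 24 log2 fold changes were recomputed under 8 other settings and 10 omissions of libraries (each library in turn, and library 1 of every group). The number of members past the threshold in IN@OMVs against Control, 3, was 5 with DESeq2 (4 higher, 1 lower) and 5 with only the 2 groups compared. It was 0 to 8 over the omissions. In OMVs against Control, 0, it was 1 with DESeq2 and 0 to 6 over the omissions. In IN@OMVs against OMVs, 1, it was 3 with DESeq2, 0 with only the 2 groups compared and 0 to 3 over the omissions. Over all genes, the 858 calls in IN@OMVs against Control became 519 with only the 2 groups. The 55 in OMVs against Control became 207 with DESeq2, 115 with only the 2 groups, 36 with limma-voom and 20 with the replicate block. The 373 in IN@OMVs against OMVs became 646 with DESeq2 and 195 with only the 2 groups. Calls over all genes in the omissions are not reported here, so the member counts there stand without that share.

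In IN@OMVs against Control, Ccl7 did not pass with DESeq2 size factors in edgeR (0.65), limma-voom (0.65) or the replicate block (0.66). Ccl2 passed with upper quartile factors (0.44), DESeq2 (0.44) and only the 2 groups (0.44), Ccl6 with only the 2 groups (0.37), and Ccl3 with DESeq2 (-0.61) and the replicate block (-0.61). In OMVs against Control Ccl2 passed with DESeq2 (0.47). In IN@OMVs against OMVs Ccl4 (-0.76) and Ccl12 (0.81) passed with DESeq2, and Ccl3 did not with only the 2 groups (-0.84). The replicate block changed no other call of a member, and in IN@OMVs against OMVs it also called Ccl3 alone. In no comparison are the numbers shown to mark pairs. The cause of these changes was not tested.

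Over the omissions the log2 change in IN@OMVs against Control lay between 0.35 and 0.51 for Ccl2, -0.81 and -0.44 for Ccl3, -0.80 and -0.32 for Ccl4, 0.32 and 0.39 for Ccl6, 0.45 and 0.75 for Ccl7, 0.76 and 1.06 for Ccl8, -0.53 and -0.32 for Ccl9, and 0.99 and 1.43 for Ccl12. In OMVs against Control it lay between 0.40 and 0.59 for Ccl2, 0.11 and 0.39 for Ccl3, 0.14 and 0.50 for Ccl4, 0.38 and 0.64 for Ccl7, 0.34 and 0.79 for Ccl8, 0.25 and 0.66 for Ccl12, and 0.071 and 0.37 for Ccl6, and for Ccl9 it changed sign, from -0.174 to 0.063. In IN@OMVs against OMVs it lay between -1.03 and -0.74 for Ccl3, -1.12 and -0.60 for Ccl4, -0.55 and -0.20 for Ccl9, 0.41 and 1.05 for Ccl12, and 0.077 and 0.58 for Ccl8. There it changed sign for Ccl2 (-0.232 to 0.047), Ccl6 (-0.011 to 0.297) and Ccl7 (-0.12 to 0.28). The 84 differences in ratio kept their sign with a pseudocount of 1.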
